A study of Mus musculus with 18 samples.

Results

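The 10 genes described here mark macrophages and dendritic cells: *Adgre1*, *Csf1r*, *C1qa*, *C1qb*, *C1qc*, *Cd68*, *Mrc1*, *Itgax*, *H2-Aa* and *H2-Ab1*. They were chosen by name from the 45706 genes counted in whole kidneys, and were found through their Ensembl identifiers. Kidneys came from 4 groups of C57BL/6 mice, with 5 *Myc* KO, 5 *Myc* control, 5 *Cxcl12* KO and 3 *Cxcl12* control samples. KO mice carried floxed alleles of *Cxcl12* or *Myc* (F/F) together with Pax8rtTA and TetOCre, and control mice carried the same floxed alleles and Pax8rtTA but lacked TetOCre. The study's methods describe male littermates aged 10 to 12 weeks. All of them, controls included, drank doxycycline for 14 days, followed by a washout of 1 week. Every kidney, in all 4 groups, had gone through bilateral ischemia of 22.5 min and reperfusion of 12 h, so no group shows the uninjured organ. Pax8rtTA directs recombination to tubule cells, and the remaining cells of the kidney kept the floxed gene intact. Because RNA was taken from whole kidneys, fewer cells of a type and less RNA per cell cannot be told apart in any value below. The labels number the samples of a group as replicates, and p-values measure the spread between these samples.

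Macrophages and dendritic cells form a network between the tubules of the kidney. Macrophages engulf dying cells and debris, and dendritic cells carry antigens to T cells on MHC class II molecules. After ischemia the resident cells are joined by monocytes from the blood, which can mature into either type. The 10 genes cover several of these tasks. *Csf1r* encodes the receptor for the growth factors CSF1 and IL-34, on which macrophages depend. *Adgre1* encodes F4/80, the classical surface antigen of mouse macrophages, and *Cd68* encodes a glycoprotein of the lysosomal membrane of phagocytes. *C1qa*, *C1qb* and *C1qc* encode the chains of C1q, the recognition molecule of the classical complement pathway, which macrophages secrete. *Mrc1* encodes the mannose receptor CD206, found on tissue macrophages. *Itgax* encodes CD11c, an integrin of dendritic cells and some macrophages. *H2-Aa* and *H2-Ab1* encode the alpha and beta chains of an MHC class II molecule.

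The genes of the C1q chains are neighbours on chromosome 4 of GRCm38, between 136880129 and 136898803, and *H2-Ab1* and *H2-Aa* lie next to each other on chromosome 17, from 34257689 to 34269419 and from 34282744 to 34287823. *Adgre1* lies elsewhere on chromosome 17, from 57358691 to 57483527, and *Cd68* on chromosome 11, from 69664213 to 69666153. *Mrc1* spans 14229392 to 14332057 of chromosome 2 and *Itgax* 128129547 to 128150657 of chromosome 7. All 10 are protein-coding genes, whose values sum reads over their exons. The RefSeq table of start sites on GRCm38.p6 held a window for 6 of the 10 genes, namely *C1qb*, *C1qc*, *Cd68*, *Mrc1*, *Itgax* and *H2-Aa*. In the 250 bases before each start, 3 motifs were searched on both strands. These were CCAAT, the core of the Y box of MHC class II promoters, TGACGTCA, the consensus of cyclic AMP response elements that the X2 box resembles, and GAGGAA, a core bound by the myeloid factor PU.1. The motifs do not overlap each other in the windows shown. The windows of *H2-Aa* and *C1qb* are printed because the former gene gave the only adjusted p under 0.05 among the 10 and the latter stands for the C1q genes, which varied together. Both read 5′ to 3′ on the minus strand, with motif letters in capitals, at chr17:34287824-34288073 for *H2-Aa* and chr4:136886201-136886450 for *C1qb*.
H2-Aa: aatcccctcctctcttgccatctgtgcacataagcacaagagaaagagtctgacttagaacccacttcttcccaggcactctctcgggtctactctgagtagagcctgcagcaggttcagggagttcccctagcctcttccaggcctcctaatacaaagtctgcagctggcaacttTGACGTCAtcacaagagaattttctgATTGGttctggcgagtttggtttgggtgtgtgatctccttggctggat
C1qb: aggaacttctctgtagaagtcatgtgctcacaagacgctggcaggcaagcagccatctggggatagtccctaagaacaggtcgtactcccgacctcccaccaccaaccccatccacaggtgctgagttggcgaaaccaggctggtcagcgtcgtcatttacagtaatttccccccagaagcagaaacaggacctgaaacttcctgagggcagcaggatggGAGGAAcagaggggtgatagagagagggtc
The window of *H2-Aa* held TGACGTCA at positions -74 to -67 from the start and ATTGG, the reverse complement of CCAAT, at -48 to -44. TGACGTCA was found in 1.55% and CCAAT in 33.8% of all 32817 windows of this length. GAGGAA stood at positions -30 to -25 of *C1qb*, and another match at -193 to -188 of *C1qc*. This motif was present in 23.3% of all windows, and in 4 of the 6 windows of the 10 genes, those of *C1qb*, *C1qc*, *Cd68* and *Mrc1*. CCAAT was likewise in 4 of the 6, those of *Cd68*, *Mrc1* and *Itgax* as well as *H2-Aa*. Such matches describe letters and were not tested as binding sites.

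Gene counts summed to 12918220 in the smallest library and to 29749500 in the largest. Unmapped reads made up less than 5% in 6 kidneys, and these 6 also had the most reads, at least 32532582 against at most 26415146 in the other 12. They were *Cxcl12* KO 1 and 2, *Myc* KO 3 and 5, and *Myc* control 1 and 3, with 0 *Cxcl12* control kidneys. The labels name no sequencing batch. The targeted genes were lower in their own KO groups, with 32.3 ± 6.07 normalized CPM (a gene's reads relative to all reads counted in a kidney, SD, n = 5) against 53.5 ± 7.92 (SD, n = 3) for *Cxcl12* and 31.0 ± 3.95 against 94.9 ± 14.5 (SD, n = 5 each) for *Myc*. The tissue label was checked with 8 markers of tubule cells, which summed to between 6190 and 9163 CPM in every kidney. All 10 genes had reads in all 18 kidneys. Read numbers were smallest for *Adgre1*, with 18 to 130 reads per kidney, and *Itgax*, with 35 to 122, and largest for *H2-Aa*, with 384 to 1759. Values of *Adgre1* and *Itgax* therefore carry the largest counting error.

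Per kilobase of exon, mean levels over the 18 kidneys spanned from 18.4 normalized RPKM for *C1qb* to 0.766 for *Itgax*. *H2-Ab1* followed *C1qb* with 15.6 RPKM, then *C1qa* with 15.2, *Cd68* with 14.5, *H2-Aa* with 10.7, *C1qc* with 6.95, *Csf1r* with 4.72, *Mrc1* with 1.63 and *Adgre1* with 1.19. *C1qb* thus lay above 82.7% of the 15854 genes with a length, and *Itgax* above 21.5% of them. The MHC class II genes varied most between kidneys, with a coefficient of variation of 40.5% for *H2-Ab1* and 40.1% for *H2-Aa*. *Csf1r* and *Cd68* varied least, with 15.4% and 16.4%.

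**Figure D1:**
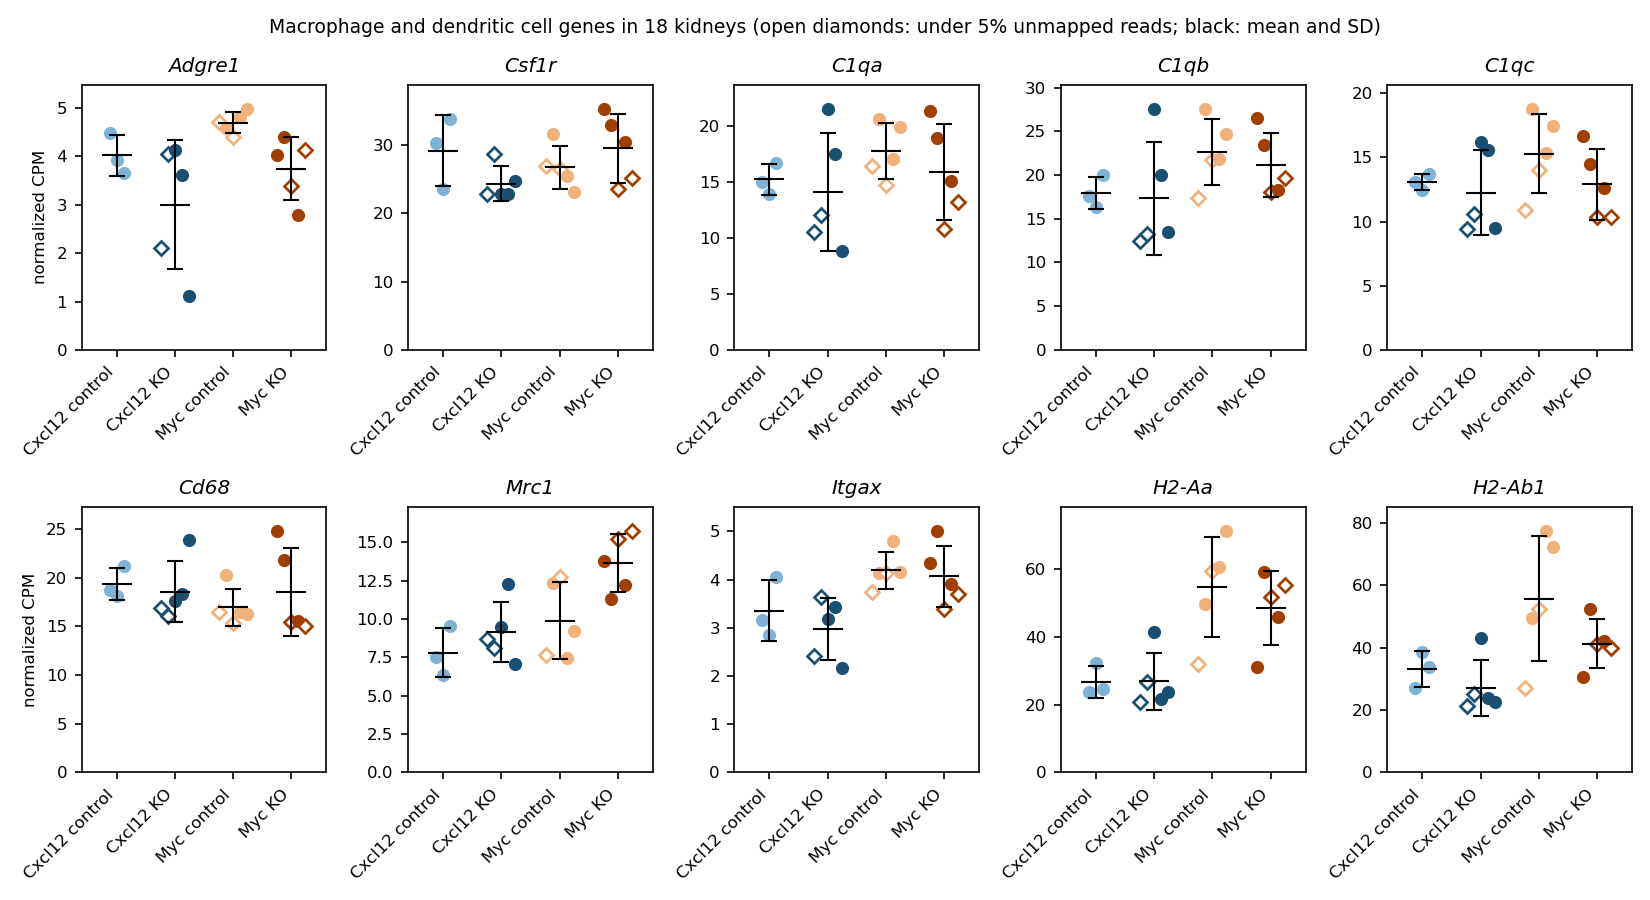
Normalized CPM of the 10 genes (y axes, linear from 0) in each of the 18 kidneys, by group (x axes). Circles are kidneys with 5% or more unmapped reads, open diamonds the 6 kidneys below 5%, and black bars the mean and SD. *H2-Aa* and *H2-Ab1* sat higher in both *Myc* groups than in both *Cxcl12* groups on average, and all 5 *Myc* KO kidneys lay below all 5 *Myc* control kidneys for *Adgre1*.

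None of the 10 genes passed the test in *Cxcl12* KO against *Cxcl12* control kidneys or in *Myc* KO against *Myc* control kidneys (edgeR's quasi-likelihood test, adjusted p under 0.05 after Benjamini-Hochberg adjustment over all genes tested). The same test called 0 of 15154 genes (0%) in the *Cxcl12* cohort and 246 of 14936 genes (1.65%) in the *Myc* cohort. With DESeq2 the test called 355 genes (2.34%) and 1139 genes (7.63%), and again 0 of the 10 in either cohort. At an unadjusted p under 0.05, the *Cxcl12* cohort had 0 of the 10 genes, where 13% of all genes passed, and the *Myc* cohort had 2, *Adgre1* and *Mrc1*, where 21.9% passed. In the *Cxcl12* cohort 9 of the 10 log2 fold changes were below 0, against 49.8% of all genes, and in the *Myc* cohort 7 of 10 were, against 50.1%. Between the groups of the *Cxcl12* cohort 0 of the 10 genes were free of overlap, beside 9.68% of all genes. Median log2 fold changes of the 10 were -0.12 and -0.13 in the cohorts, beside medians of 0.00083 and -0.00083 over all genes. Several of the 10 genes rise and fall together, so these counts do not stand for 10 separate observations.

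Whether the KO effect differed from one cohort to the other was fitted over all 18 kidneys, and 0 of the 10 genes passed, beside 11 of 15903 genes (0.0692%). DESeq2 called 314 genes (1.97%) there, and 0 of the 10. *Csf1r* gave an unadjusted p of 0.046 from edgeR's test, as 11.4% of all genes did at the 0.05 level. Its log2 fold change differed by -0.40 (SE 0.19, 95% confidence interval -0.79 to -0.01, adjusted p = 0.43), with the lower value in the *Cxcl12* cohort. For the other 9 genes the difference lay between -0.24 for *Mrc1* and 0.16 for *H2-Aa*.

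**Figure D2:**
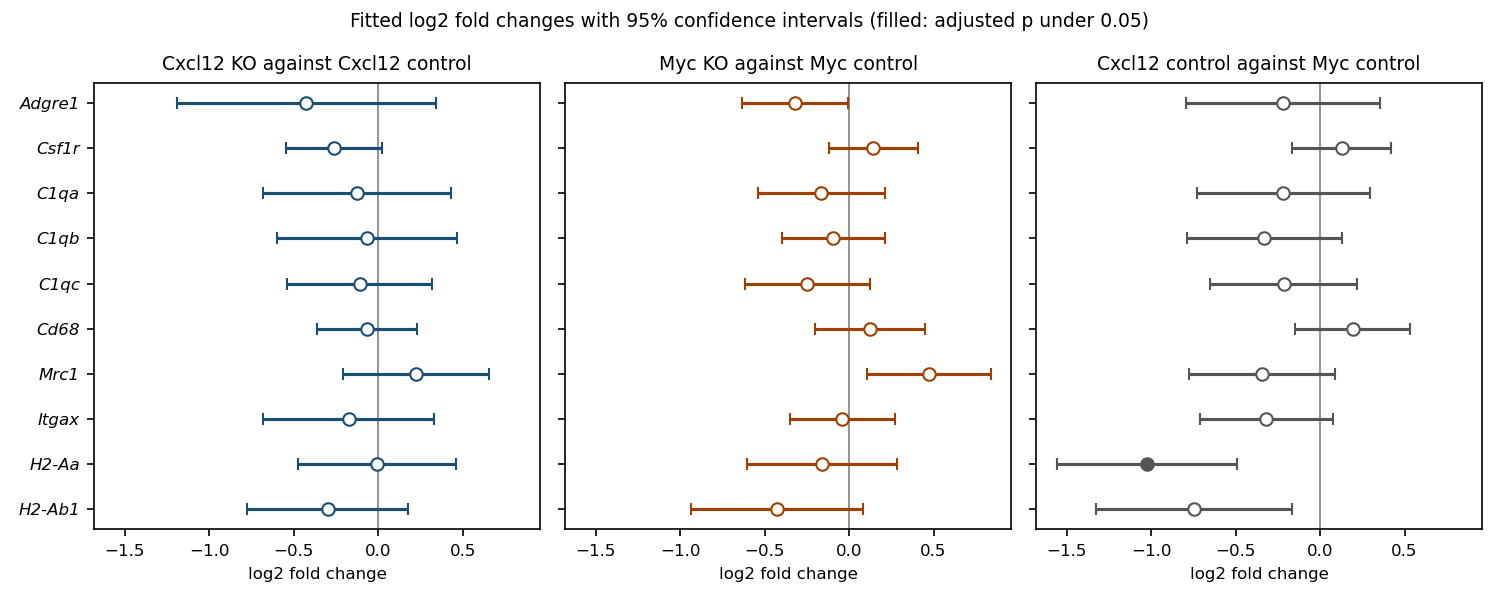
Fitted log2 fold change (x axes) of each of the 10 genes (y axis) in 3 comparisons, with 95% confidence intervals from edgeR. A filled point has an adjusted p under 0.05, which held for *H2-Aa* between the control groups alone, at -1.03.

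Among the receptors and surface antigens of macrophages, *Adgre1* was the gene with the clearest order in the *Myc* cohort, while KO and control ranges of *Csf1r* and *Cd68* overlapped in both cohorts. *Adgre1* had 4.70, 4.59, 4.40, 4.80 and 4.98 CPM in *Myc* control kidneys 1 to 5 and 4.03, 4.39, 3.38, 2.79 and 4.13 CPM in *Myc* KO kidneys 1 to 5. All 5 KO kidneys lay below all 5 controls, which 3.92% of all genes in this cohort also showed. The margin was narrow, since the highest KO kidney had 4.39 and the lowest control 4.40 CPM. The fitted log2 fold change was -0.32 (SE 0.14, 95% confidence interval -0.63 to -0.01), a fold of 0.801, and did not pass the adjustment over all genes (adjusted p = 0.22 with edgeR). An exact permutation of the genotype labels gave a two-sided p of 0.0079, the smallest that 5 against 5 kidneys allow. Within the kidneys with 5% or more unmapped reads, the 3 KO kidneys averaged 3.74 and the 3 controls 4.79 CPM. These could not overlap, since the full groups did not, and 15.6% of all genes lay lower without overlap there. Counting the reads of either strand apart moved the log2 fold change to -0.46 and -0.16.

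In *Cxcl12* control kidneys 1 to 3 *Adgre1* had 4.48, 3.93 and 3.65 CPM, and in *Cxcl12* KO kidneys 1 to 5 it had 2.11, 4.05, 4.12, 3.61 and 1.12 CPM. KO kidneys 1 and 5 were thus well below every other kidney of the series, while the other 3 overlapped with the controls. The log2 fold change of -0.42 (SE 0.35, adjusted p = 0.63, edgeR) had an interval from -1.19 to 0.34. Its exact permutation p was 0.27, where 3 against 5 kidneys could reach 0.018. The CPM of 1.12 in KO kidney 5 rested on 18 reads.

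*Csf1r* levels were 22.8, 28.7, 22.8, 22.8 and 24.8 CPM in *Cxcl12* KO kidneys 1 to 5, against 30.3, 23.5 and 33.8 CPM in their controls. All 5 KO kidneys lay below the control mean, but control kidney 2 fell within their range (log2 fold change -0.26, SE 0.13, adjusted p = 0.42 with edgeR). In the *Myc* cohort the log2 fold change was 0.14 (SE 0.12, adjusted p = 0.52), with 35.4, 33.0, 23.6, 30.5 and 25.3 CPM in KO kidneys 1 to 5 and 26.9, 31.7, 26.5, 25.4 and 23.1 CPM in controls 1 to 5. KO kidneys 1 and 2 of the *Myc* cohort lay above all controls, and the other 3 lay within the control range. On chromosome 18, from 61100598 to 61132149, *Csf1r* shares 873 bp of exon with *Hmgxb3* on the other strand, and its reads over all kidneys were 9394 in the column that ignores strand but 12602 in both strand columns together.

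*Cd68* means were 17.0 ± 1.92 CPM in *Myc* control and 18.5 ± 4.50 CPM in *Myc* KO kidneys (SD, n = 5 each). For the *Cxcl12* cohort they were 18.6 ± 3.11 CPM with the KO (SD, n = 5) and 19.4 ± 1.63 without it (SD, n = 3). The log2 fold changes were 0.12 (SE 0.15, adjusted p = 0.66, edgeR) and -0.07 (SE 0.13, adjusted p = 0.87), and the ranges overlapped in both cohorts. The 95% intervals of its fold ran from 0.870 to 1.37 in the former and from 0.777 to 1.17 in the latter.

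*Mrc1* was the 1 gene of the 10 with a higher mean in the KO group of both cohorts. It measured 13.8, 11.3, 15.2, 12.2 and 15.7 CPM in *Myc* KO kidneys 1 to 5 and 7.67, 12.3, 12.7, 7.45 and 9.19 CPM in *Myc* control kidneys 1 to 5. All 5 KO kidneys exceeded the control mean of 9.87 CPM, while control kidneys 2 and 3 lay within the KO range. Its fitted log2 fold change was 0.47 (SE 0.17, 95% confidence interval 0.10 to 0.84), a fold of 1.39, with an adjusted p of 0.14 from edgeR and 0.076 from DESeq2. The exact permutation p was 0.056. Within the kidneys with 5% or more unmapped reads the means were 12.4 CPM in 3 KO and 9.66 CPM in 3 control kidneys, and within the others 15.5 CPM in 2 KO and 10.2 CPM in 2 control kidneys.

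In the *Cxcl12* cohort *Mrc1* measured 8.67, 8.11, 9.49, 12.3 and 7.07 CPM in KO kidneys 1 to 5 against 7.52, 6.35 and 9.51 CPM in the controls. These ranges overlapped, and the log2 fold change of 0.22 (SE 0.20) had an adjusted p of 0.66 with edgeR. Set against *Adgre1* per kilobase in the same kidney, *Mrc1* gave a ratio of 1.08 ± 0.317 in *Myc* control and 1.90 ± 0.398 in *Myc* KO kidneys (SD, n = 5 each). For the *Cxcl12* cohort the ratio was 1.84 ± 0.881 with the KO (SD, n = 5) and 1.000 ± 0.282 without it (SD, n = 3). This pair of genes was chosen after the values were seen, and its ratio was not tested.

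The C1q chains did not differ between KO and control kidneys beyond their spread, but KO kidneys of the *Cxcl12* cohort fell far apart from each other. *C1qa* had 10.6, 12.0, 21.5, 17.5 and 8.81 CPM in *Cxcl12* KO kidneys 1 to 5, and 15.0, 13.9 and 16.7 CPM in the 3 controls. KO kidneys 3 and 4 were thus above and the other 3 below all controls. *C1qb* and *C1qc* showed the same split of KO kidneys 3 and 4 from the other 3, with *C1qb* at 27.5 and 20.0 CPM in KO kidneys 3 and 4 and at 12.4, 13.3 and 13.5 CPM in KO kidneys 1, 2 and 5. The fitted log2 fold changes were -0.12 (SE 0.25) for *C1qa*, -0.06 (SE 0.24) for *C1qb* and -0.11 (SE 0.19) for *C1qc*, with adjusted p of 0.87, 0.93 and 0.85 from edgeR. Coefficients of variation were 37.5%, 37.2% and 27.3% among the 5 KO kidneys against 9.28%, 10.3% and 4.81% among the 3 controls. Spreads were not compared by a test.

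In the *Myc* cohort *C1qa* had 21.4, 18.9, 10.8, 15.1 and 13.2 CPM in KO kidneys 1 to 5 and 16.4, 20.6, 14.7, 17.1 and 19.9 CPM in controls 1 to 5. The ranges overlapped for each chain. Log2 fold changes were -0.16 (SE 0.17) for *C1qa*, -0.09 (SE 0.14) for *C1qb* and -0.25 (SE 0.17) for *C1qc*, with adjusted p of 0.60, 0.73 and 0.41 from edgeR. C1q levels were lower in the kidneys with under 5% unmapped reads, where *C1qa* averaged 13.0 CPM, *C1qb* 17.1 and *C1qc* 10.9, against 17.2, 21.4 and 14.7 CPM in the other 12. With the mapping class as a term in the fit, the *Cxcl12* log2 fold changes of *C1qa*, *C1qb* and *C1qc* turned to 0.06, 0.17 and 0.06. The part of the mapping class in the C1q values was not tested further.

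*Itgax*, the CD11c gene, had 4.07 ± 0.632 CPM in *Myc* KO and 4.19 ± 0.384 CPM in *Myc* control kidneys (SD, n = 5 each). Levels were lower in the *Cxcl12* cohort, with 2.97 ± 0.643 CPM in its KO (SD, n = 5) and 3.36 ± 0.631 CPM in its control kidneys (SD, n = 3). Its log2 fold changes between KO and control kidneys were -0.04 (SE 0.14, adjusted p = 0.89, edgeR) in the former cohort and -0.18 (SE 0.23, adjusted p = 0.77) in the latter, and between the control groups -0.32 (SE 0.19, adjusted p = 0.40).

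The alpha chain gene *H2-Aa* gave the 1 call among the 10 genes, between the control groups and not between genotypes. It had 23.6, 32.2 and 24.5 CPM in *Cxcl12* control kidneys 1 to 3 and 32.0, 49.9, 59.5, 60.6 and 71.4 CPM in *Myc* control kidneys 1 to 5. *Myc* control 1 thus lay within the range of the *Cxcl12* controls, and the other 4 were above all of them. Between these control groups *H2-Aa* was lower in the *Cxcl12* cohort, with a log2 fold change of -1.03 (SE 0.25, 95% confidence interval -1.56 to -0.49), a fold of 0.491. Its adjusted p was 0.041 from edgeR, in a comparison that called 316 of 15903 genes (1.99%), 178 of them (1.12%) lower. DESeq2 gave 0.0025, where it called 4.99% of all genes, and limma-voom 0.059, where it called 1.57%, and the exact permutation p was 0.054. The call was lost without any of 9 kidneys: adjusted p rose to 0.19, 0.093 and 0.15 without *Cxcl12* control 1, 2 or 3, to 0.071, 0.093 and 0.084 without *Myc* control 2, 3 or 5, and to between 0.052 and 0.053 without *Cxcl12* KO 2, *Myc* KO 3 or *Myc* KO 4. The log2 fold change stayed between -1.19 and -0.91 in these fits. Cohort and any batch that the labels do not name cannot be told apart here.

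*H2-Ab1* ran in parallel, with 26.99, 38.7 and 33.7 CPM in *Cxcl12* controls 1 to 3 against 27.1, 49.4, 52.4, 77.5 and 72.3 CPM in *Myc* controls 1 to 5. Its log2 fold change of -0.75 (SE 0.28) missed the threshold (adjusted p = 0.16, edgeR). Leaving out each kidney in turn gave log2 fold changes from -0.92 to -0.60. The value of -0.92 (adjusted p = 0.034, edgeR) came without *Myc* control 1, the lowest of its group for both genes. *Myc* control 1 had under 5% unmapped reads, like *Myc* control 3, which was high for *H2-Aa*.

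Within the cohorts *H2-Aa* and *H2-Ab1* did not separate KO from control kidneys. *H2-Aa* had 20.9, 26.6, 41.5, 21.8 and 23.8 CPM in *Cxcl12* KO kidneys 1 to 5, where KO kidney 3 was above all controls and the others overlapped with or lay below them (log2 fold change -0.01, SE 0.21, adjusted p = 0.99, edgeR). In *Myc* KO kidneys 1 to 5 it had 31.1, 59.2, 51.8, 45.8 and 55.3 CPM, inside the range of the *Myc* controls but for KO kidney 1 (log2 fold change -0.16, SE 0.20, adjusted p = 0.67). The beta chain gene *H2-Ab1* had 21.2, 25.1, 43.0, 23.7 and 22.7 CPM in *Cxcl12* KO and 30.7, 52.6, 41.2, 42.2 and 39.9 CPM in *Myc* KO kidneys 1 to 5. Its log2 fold changes against the controls were -0.30 (SE 0.22, adjusted p = 0.58) and -0.43 (SE 0.23, adjusted p = 0.31, edgeR), and the mean CPM of the controls exceeded 4 of the 5 *Cxcl12* KO and all 5 *Myc* KO kidneys. The 95% intervals of its fold were 0.584 to 1.13 and 0.523 to 1.06.

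Across the 4 groups, mean levels of *H2-Aa* ran from 54.7 CPM in *Myc* control over 48.6 in *Myc* KO and 26.9 in *Cxcl12* KO to 26.8 in *Cxcl12* control kidneys. The step between *Myc* KO and *Cxcl12* KO was larger than the SD of either group, and the outer steps were not. For *H2-Ab1* the order was *Myc* control with 55.7, *Myc* KO with 41.3, *Cxcl12* control with 33.1 and *Cxcl12* KO with 27.1 CPM. Ranges of neighbouring groups overlapped for all 10 genes. Log2 fold changes between the control groups were below 0 for 8 of the 10 genes, against 49.3% of all genes. Those of the 8 genes other than *H2-Aa* and *H2-Ab1* lay from -0.34 for *Mrc1* to 0.19 for *Cd68*, and 0 of these 8 passed. Over all control kidneys, 0 of the 10 genes were free of overlap between the cohorts, beside 12.1% of all genes. *Myc* controls 1 and 3 had under 5% unmapped reads. Without them, 3 *Cxcl12* control kidneys were set against 3 *Myc* control kidneys. Of the 10 genes 7 then lay lower in the *Cxcl12* cohort without overlap, where 11.6% of all genes did. These were *Adgre1*, *C1qa*, *C1qb*, *C1qc*, *Itgax*, *H2-Aa* and *H2-Ab1*, several of which rise and fall together. In a fit of all 12 kidneys with 5% or more unmapped reads, KO kidneys included, *H2-Aa* alone passed between the control groups (log2 fold change -1.17, adjusted p = 0.039, edgeR).

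**Figure D3:**
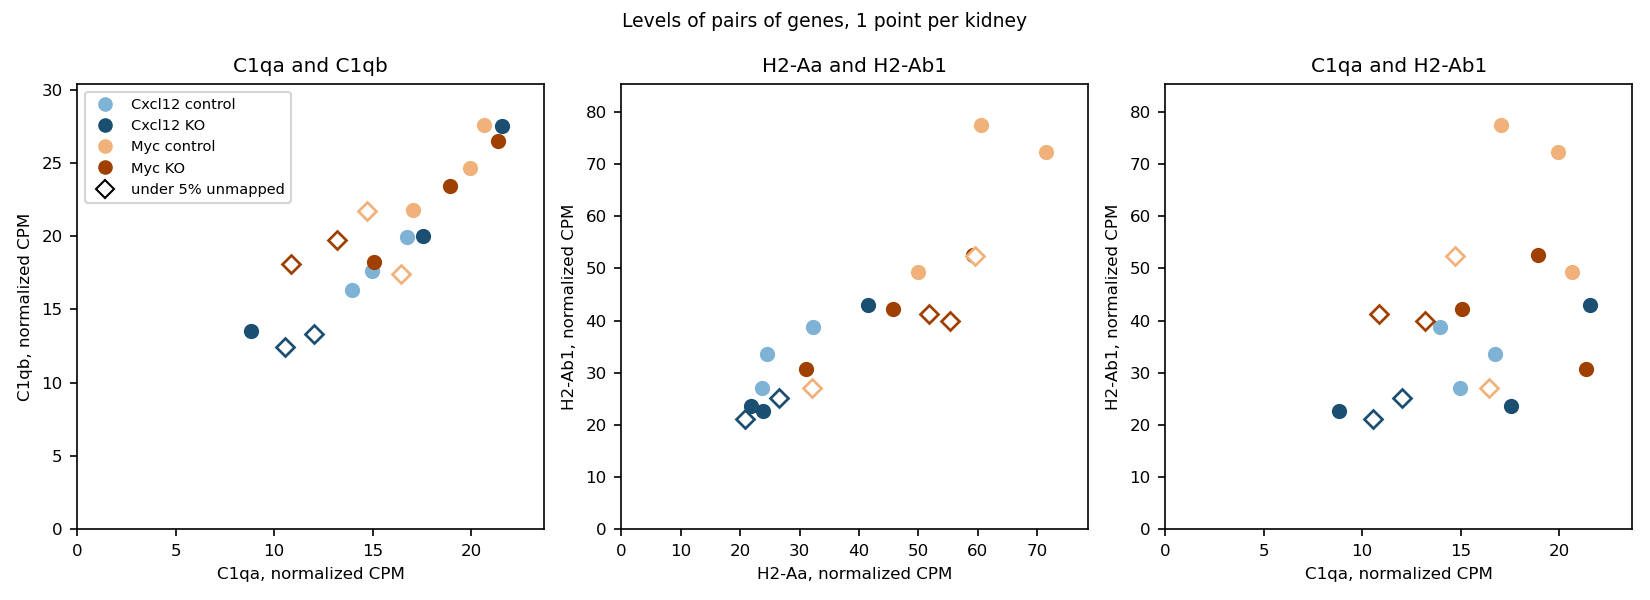
Normalized CPM of *C1qb* against *C1qa*, *H2-Ab1* against *H2-Aa* and *H2-Ab1* against *C1qa* (linear axes from 0), 1 point per kidney, coloured by group, with open diamonds for the 6 kidneys under 5% unmapped reads. Points lie along a line in the first and second panel and are scattered in the third.

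How far the genes varied together was described on log2 CPM after the mean of each group had been removed. Genes of one molecule kept step, with Pearson's r between 0.88 and 0.91 for the 3 pairs of C1q chains and 0.92 for *H2-Aa* with *H2-Ab1*, over 18 kidneys. C1q chains and MHC class II genes were only loosely related, with r from 0.13 to 0.48 over 6 pairs. The median over all 45 pairs was 0.32, and the lowest value was -0.42 for *H2-Aa* with *Csf1r*. Against the mean of the other 9 genes, *C1qc* had the highest r, 0.89, and *Cd68* the lowest, 0.17. All of these values share the same libraries and their depth.

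Of 6 pairs tested, *C1qa* with *C1qb* was past the threshold, with r = 0.88 (permutation p = 0.00014, adjusted 0.00084) and Spearman's rho = 0.87 (permutation p = 0.00049, adjusted 0.0029). Without the 2 kidneys farthest from the median of *C1qa*, r was 0.84. In the 12 kidneys with 5% or more unmapped reads r was 0.96, whereas it was 0.02 in the 6 others. These 6 hold only 2 kidneys per group, too few to show whether the relation held there. *C1qa* with *Adgre1* gave r = 0.65 and rho = 0.57 (adjusted permutation p = 0.16 for each), with 0.92 in the 12 and 0.74 in the 6 kidneys. *C1qa* with *Cd68* had r = 0.32 over all kidneys and 0.80 without the 2 farthest, but -0.11 and -0.22 within the mapping classes. Leaving out *Cxcl12* KO 5, which had the lowest *C1qa* and the highest *Cd68* of its group, raised that r to 0.72 with an adjusted permutation p of 0.0027. The remaining 3 pairs, *C1qa* with *Mrc1*, *C1qa* with *H2-Ab1* and *Itgax* with *H2-Ab1*, gave r of 0.24, 0.31 and 0.36 and adjusted permutation p of 0.37, 0.32 and 0.27.

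**Figure D4:**
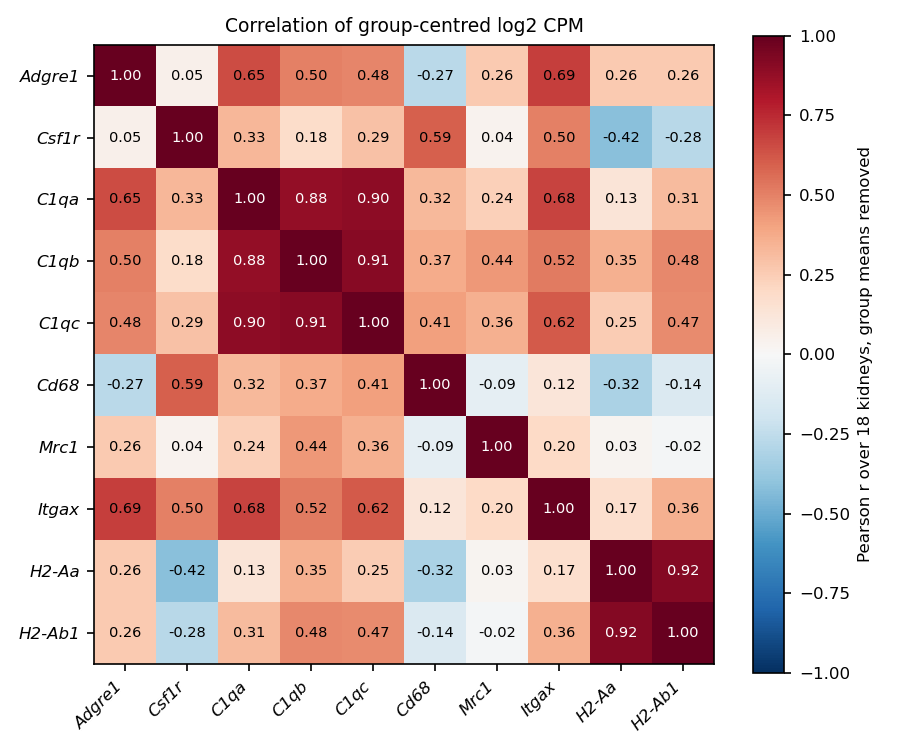
Pearson's r between the 10 genes over 18 kidneys, on log2 CPM with group means removed (rows and columns are genes, colour from -1 to 1). The C1q chains form a block of 0.88 to 0.91, and *H2-Aa* and *H2-Ab1* another of 0.92.

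Per kilobase, *C1qb* stood at 1.22 ± 0.156 and *C1qc* at 0.464 ± 0.0504 times *C1qa* (SD, n = 18). *H2-Ab1* stood at 1.49 ± 0.246 times *H2-Aa*. That ratio was highest in *Cxcl12* control kidneys, at 1.83 ± 0.177 (SD, n = 3), and lowest in *Myc* KO kidneys, at 1.28 ± 0.155 (SD, n = 5). *Myc* control and *Cxcl12* KO kidneys lay between them with 1.48 ± 0.253 and 1.49 ± 0.0893 (SD, n = 5 each). These ratios were chosen after the values were seen and carry no test. Outside the 10 genes, the genes whose group-centred log2 CPM were most like the mean of the 10, over 18 kidneys and 13758 genes, were *Abhd14a* (r = 0.88), *Pemt* (0.84), *Rack1* (0.81), *Rpl41* (0.81) and *Rpl27* (0.81). Reads of ribosomal protein genes such as *Rpl41* and *Rpl27* can be split with near-identical pseudogenes.

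Beyond the 10 genes, 0 members of the wider lists of the lineage and of other cell types passed edgeR's test within a cohort, beside 0% and 1.65% of all genes. The lists were drawn up with earlier results of these data known. The macrophage and monocyte list had 27 genes tested for *Cxcl12* and 28 for *Myc*. Of these, 6 and 5 had an unadjusted p under 0.05, beside 13% and 21.9% of all genes. DESeq2 called 2 in either cohort, *Cd14* and *Fcgr4* in the former and *Mertk* and *Cx3cr1* in the latter, beside 2.34% and 7.63% of all genes. The same shares stand beside the counts of the other lists within a cohort. *Cd14*, the co-receptor for bacterial lipopolysaccharide, had the lowest p of this list in the *Cxcl12* cohort. It had 103 ± 35.4 CPM in KO (SD, n = 5) and 39.6 ± 1.11 CPM in control kidneys (SD, n = 3), with a log2 fold change of 1.38 (SE 0.24, adjusted p = 0.079 from edgeR and 4.6e-06 from DESeq2). *Fcgr4*, an activating Fc receptor, had a log2 fold change of 1.01 (SE 0.26, adjusted p = 0.15 from edgeR and 0.022 from DESeq2), and *Gpnmb*, a glycoprotein of lipid-laden macrophages, one of -1.04 (SE 0.28, adjusted p = 0.17). The median of the list was 0.20 on the log2 scale, where all genes had 0.00083 and the 10 genes -0.12.

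In the *Myc* cohort the lowest p of that list belonged to *Cx3cr1*, the fractalkine receptor of monocytes and resident macrophages. Its log2 fold change was -1.25 (SE 0.34, adjusted p = 0.082 from edgeR and 0.013 from DESeq2), with overlapping ranges. In the *Cxcl12* cohort it was -1.20 (SE 0.35, adjusted p = 0.20 from edgeR and 0.062 from DESeq2). There all KO kidneys lay below all controls, as 4.72% of all genes did. Mean levels were low, 1.49 CPM in *Myc* KO, 3.54 in *Myc* control, 1.48 in *Cxcl12* KO and 3.47 in *Cxcl12* control kidneys. *Mertk*, a receptor for the uptake of apoptotic cells, had 0.29 (SE 0.087, adjusted p = 0.099, edgeR) in the *Myc* cohort. Of 11 dendritic cell genes tested per cohort 0 passed with edgeR, and DESeq2 called *Zbtb46* in the *Myc* cohort. *Zbtb46*, a transcription factor of classical dendritic cells that endothelial cells also express, had the lowest p of the dendritic cell list in the *Myc* cohort (log2 fold change 0.35, SE 0.11, adjusted p = 0.10, edgeR). Of 10 further genes of the MHC class II pathway 0 passed with edgeR in either cohort, 1 in each had an unadjusted p under 0.05, and DESeq2 called *Ifi30* in the *Myc* cohort. In each cohort 8 of these 10 had negative log2 fold changes. Examples are *H2-DMb1*, a chain of the peptide loading factor, with -0.69 (SE 0.22, adjusted p = 0.24, edgeR) in the *Cxcl12* cohort, and *Ifi30*, a lysosomal thiol reductase, with -0.28 (SE 0.087, adjusted p = 0.11) in the *Myc* cohort. *Ciita*, the master regulator of the class II genes, had -0.72 (SE 0.40) and -0.65 (SE 0.41) with adjusted p of 0.47 and 0.37.

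Of the growth factors of the lineage and their receptors, 4 were tested and 0 passed with edgeR, while DESeq2 called *Csf2rb* in the *Cxcl12* cohort. *Csf2rb*, the common beta receptor chain of GM-CSF, had log2 fold changes of 0.87 (SE 0.22, adjusted p = 0.14, edgeR) and 0.66 (SE 0.30, adjusted p = 0.22). *Csf1*, a ligand of *Csf1r*, had -0.15 (SE 0.16, adjusted p = 0.72) and 0.24 (SE 0.11, adjusted p = 0.22). Among 8 partners and regulators of C1q 0 passed with edgeR, and the lowest p was that of *Cd93*, which DESeq2 called in both cohorts and which encodes a glycoprotein of endothelial and myeloid cells, with 0.54 (SE 0.13, adjusted p = 0.14) and 0.60 (SE 0.21, adjusted p = 0.13). For the change of the KO effect across cohorts, 0 genes of these lists passed with edgeR or DESeq2.

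Between the control groups more genes of these lists were called. Of 29 macrophage and monocyte genes, 6 were lower in the *Cxcl12* cohort, *Fcgr4*, *Cd14*, *Itgam*, *Ctss*, *Chil3* and *Fcer1g*, and 2 were higher, *Maf* and *Gpnmb*. Of all genes, 1.12% were called lower and 0.868% higher. *Fcgr4* had a log2 fold change of -1.59 (SE 0.24, adjusted p = 0.0024, edgeR) and *Itgam*, which encodes CD11b, -1.34 (SE 0.26, adjusted p = 0.015). *Chil3*, a chitinase-like gene of alternatively activated macrophages and of neutrophils, had -2.79 (SE 0.62, adjusted p = 0.026). *Cd74*, the invariant chain that escorts MHC class II, was lower, with -0.74 (SE 0.19, adjusted p = 0.046, edgeR), the 1 call among 12 tested of its list. *Ccr7*, the homing receptor of migrating dendritic cells, was the 1 call among 12 of its list, with -2.84 (SE 0.62, adjusted p = 0.025, edgeR). Its level was near the floor, at 0.148 ± 0.0816 CPM in *Cxcl12* control (SD, n = 3) and 1.13 ± 0.833 CPM in *Myc* control kidneys (SD, n = 5). *Ccr7* did not pass the count filter in the fit of the *Cxcl12* cohort. The list of macrophage and monocyte genes had a median of -0.67, the 10 genes -0.27 and all genes 0.0034.

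**Figure D5:**
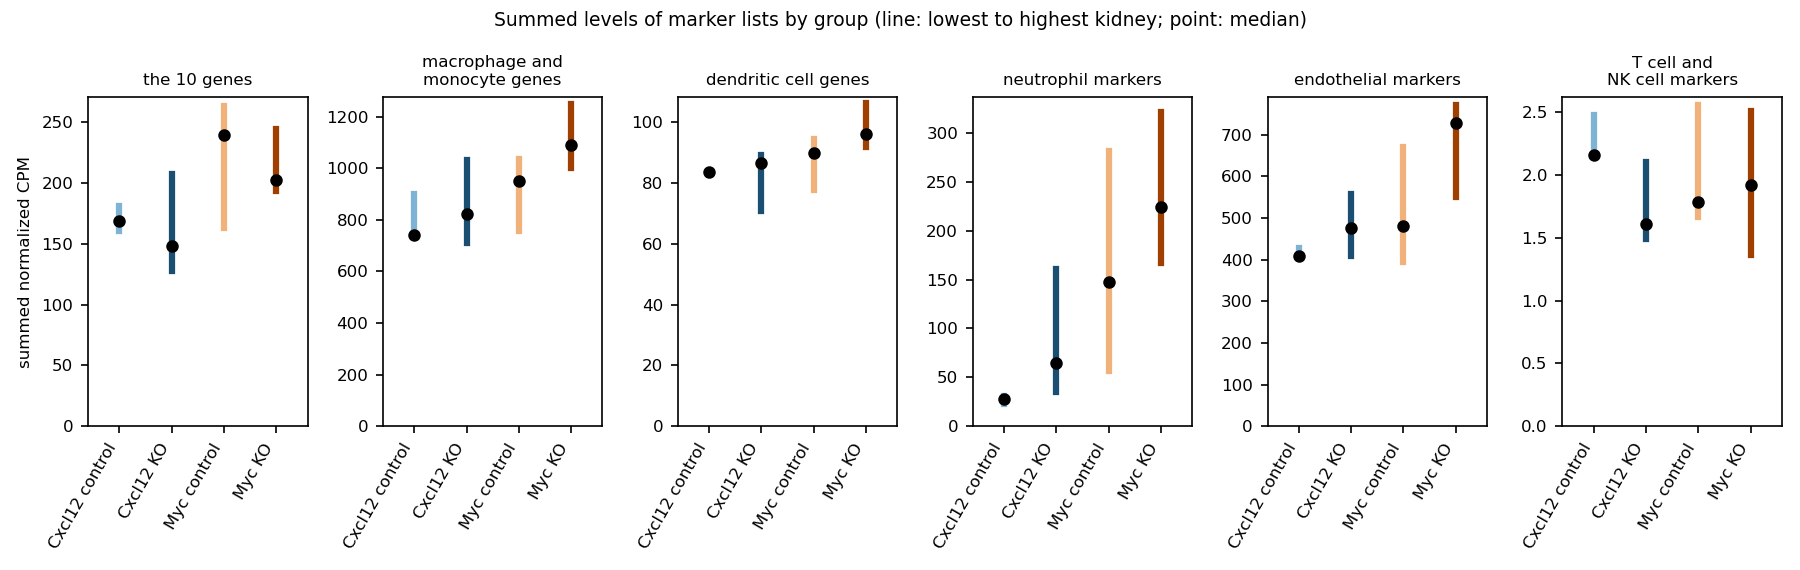
Summed normalized CPM (y axes, linear from 0) of the 10 genes and of 5 marker lists in the 4 groups (x axes). Lines run from the lowest to the highest kidney, and points are medians. Neutrophil markers ran from 22.5 to 31.3 CPM in *Cxcl12* control and from 56.6 to 282 CPM in *Myc* control kidneys, whereas T and NK cell markers stayed at or below 2.56 CPM throughout.

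Markers of other cells moved beside these values. Neutrophil markers, of which 0 of 10 were at 0 in all kidneys, summed to between 35.2 and 160.5 CPM in *Cxcl12* KO against 22.5 to 31.3 CPM in control kidneys. All 8 tested had positive log2 fold changes, as 50.2% of all genes did, with a median of 1.74. An unadjusted p under 0.05 was found for 8, beside 13% of all genes. With edgeR 0 passed the adjustment (lowest adjusted p = 0.19), while DESeq2 called *Mmp9*, as it did 2.34% of all genes. In the *Myc* cohort their sum was 167 to 321 CPM in KO and 56.6 to 282 in control kidneys. Between the control groups edgeR called 4 of 9 neutrophil markers lower in the *Cxcl12* cohort, beside 1.12% of all genes. These were *Mmp9*, *S100a8*, *S100a9* and *Mmp8*, with log2 fold changes from -2.77 to -2.34. Of the tubular injury markers *Lcn2* was lower there, with -1.14 (SE 0.23, adjusted p = 0.017), while its log2 fold change between *Cxcl12* KO and control kidneys was 0.84 (SE 0.18, adjusted p = 0.11 from edgeR and 0.00082 from DESeq2), and of the tubule markers *Lrp2* was higher by 0.63 (SE 0.15, adjusted p = 0.038). Endothelial markers summed to 395 to 671 CPM in *Myc* control and 551 to 770 CPM in *Myc* KO kidneys, and podocyte markers to 420 to 732 and 709 to 806 CPM. DESeq2 called the endothelial genes *Kdr* and *Cdh5* and the podocyte gene *Nphs1* higher in the *Myc* KO kidneys, with adjusted p of 0.046, 0.039 and 0.038, where edgeR gave 0.12, 0.12 and 0.11. In that comparison DESeq2 called 7.63% of all genes. Red blood cell genes summed to 36.1 to 163 CPM in *Cxcl12* KO and 12.5 to 65.3 CPM in control kidneys. B cell markers stayed between 0.434 and 1.12 CPM, and T and NK cell markers between 1.37 and 2.56 CPM, with *Ncr1* and *Gzma* at no more than 3 reads in any kidney. The part of these cells in the levels of *H2-Aa*, *Adgre1* or *Mrc1* was not tested.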

How the data were processed

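RNA of whole kidneys was sequenced in 18 samples. The authors trimmed reads with Trimmomatic 0.32, aligned them with STAR 2.4.0 to GRCm38, and deposited raw counts per gene, without normalization. The deposited counts that ignore strand were used. Rows of unmapped, multimapping, featureless and ambiguous reads were left out of library sizes. Of 45706 genes, 45143 matched GENCODE vM21, which gave symbols, positions and exon lengths.

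Low counts were removed with filterByExpr, libraries were scaled by TMM, and edgeR 4.0.16 in R 4.3.3 compared genes by quasi-likelihood, with Benjamini-Hochberg adjustment over all genes tested. Each cohort was fitted alone. The remaining comparisons used all 18 kidneys, so that they share control samples with the first ones. Printed levels are CPM scaled over 18 kidneys, and log2 CPM took a prior count of 2. The exact permutation test used log2 CPM, and correlations used 100000 permutations. Alternatives used DESeq2 1.42.0, limma 3.58.1, other filters and columns, the mapping class, replicate numbers and leaving out each kidney. The main edgeR fit of each comparison was tested on simulated data, and the alternatives were not.

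The 10 genes, the other lists and the tests were chosen with earlier results of these data known. Named genes are the 10, list genes that passed or were among the 4 with the lowest p of their list in a comparison, the 5 genes most like the 10, and the targeted genes. *Ncr1* and *Gzma* are named outside this rule, for their low reads, after their values were seen.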

Additional observations from a re-analysis of the deposited data

Results flagged for a closer look

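In 4 of 30 groups of 5 kidneys tested, 1 kidney stood apart from the other 4 by more than Dixon's 95% limit, which chance alone passes in about 1 in 20 groups. *Cd68* was at 23.94 CPM in *Cxcl12* KO 5, where the other KO kidneys had 16.1 to 18.3 CPM, and at 20.31 CPM in *Myc* control 2, where the others had 15.4 to 16.5 CPM. *H2-Aa* was at 41.46 CPM and *H2-Ab1* at 43.02 CPM in *Cxcl12* KO 3, above 20.9 to 26.6 and 21.2 to 25.1 CPM in the other KO kidneys of that cohort. *Cxcl12* KO 3 also had the highest *C1qa*, at 21.5 CPM, and *Cxcl12* KO 5 the lowest, at 8.81 CPM.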

How the results depend on the processing

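None of the 10 genes passed within a cohort, or in the difference of KO effects, under any alternative run. Numbers of all genes called moved widely. For *Cxcl12* KO against control, 0 became 214 without the filter, 355 with DESeq2, 9 in the first strand column, 123 with the mapping class as a term, 80 without the kidneys under 5% unmapped reads, 25 with 18 kidneys in 1 fit, and 0 to 15 without each kidney. For *Myc* KO against control, 246 became 1139 with DESeq2, 954 with the class term, 8 without those kidneys, 683 with 18 kidneys, and 21 to 877 without each kidney. It fell to 21, 29, 54 and 78 without *Myc* KO 2, 3, 4 and 5 and to 35, 96 and 108 without *Myc* control 2, 4 and 5, and rose to 877 without *Myc* control 3. For the difference of KO effects, 11 became 314 with DESeq2, 3 with limma-voom, 4 and 7 in the strand columns, 133 with the class term, 44 without those kidneys, and 1 to 75 without each kidney. Between the control groups, 316 became 794 with DESeq2 and 49 to 611 without each kidney. It fell to 49, 60 and 122 without *Cxcl12* control 1, 2 and 3 and to 160, 118 and 200 without *Myc* control 2, 3 and 5, and rose to 543 and 611 without *Myc* control 1 and 4. The number of the 10 genes called there was 0 with limma-voom, where *H2-Aa* had -0.985 (adjusted p = 0.059), and 0 to 2 without each kidney.

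Directions turned for log2 fold changes between -0.13 and 0.16. In the *Cxcl12* cohort these were *H2-Aa* (0.030 in the first strand column, 0.10 with the class term and 0.096 without the kidneys under 5%), *C1qb* (0.065 in the second strand column, 0.17 and 0.16), *C1qa* (0.057 and 0.052), *C1qc* (0.060 and 0.054) and *Cd68* (0.039 and 0.032). In the *Myc* cohort *Itgax* turned to 0.084 in the second strand column and 0.032 without those kidneys. In the difference of KO effects, limma-voom gave -0.0094 for *C1qa*, -0.069 for *C1qb* and -0.012 for *H2-Ab1*, and the first strand column -0.17 for *C1qb* and 0.17 for *Itgax*. Without each kidney, *C1qb* ran from -0.29 to 0.034 and *H2-Aa* from -0.21 to 0.15 in the *Cxcl12* cohort, and *Itgax* from -0.13 to 0.023 in the *Myc* cohort. The difference of KO effects then ran from -0.25 to 0.10 for *Adgre1*, -0.16 to 0.17 for *C1qa*, -0.19 to 0.14 for *C1qb*, -0.23 to 0.033 for *Itgax*, -0.050 to 0.32 for *H2-Aa* and -0.10 to 0.31 for *H2-Ab1*. Correlations past the threshold numbered 1 to 2 without each kidney. Among the 6 kidneys under 5% they numbered 0, but no pair could pass there. With 2 kidneys per group, permutation within groups has too few arrangements. *C1qa* with *Cd68* turned to -0.11 in the other 12, and in the 6 it had -0.22, *C1qa* with *Mrc1* -0.44 and *C1qa* with *H2-Ab1* -0.33. The causes were not tested.

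Kidneys with equal replicate numbers deviated together by a mean r of 0.068 over 3 pairs in the *Cxcl12* and 0.053 over 5 pairs in the *Myc* cohort, with lowest values of -0.032 and -0.21, so the numbers were not read as pairs. With the number as a replicate block, 18 genes were called in the *Myc* cohort and 1 in the difference of KO effects, 0 of the 10 genes within either. *H2-Aa* turned to 0.094 in the *Cxcl12* cohort, and the difference of KO effects to 0.058 for *Adgre1* and -0.012 for *C1qb* under the block.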
